A study of Mus musculus with 13 samples.

Results

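The genes described here are the mouse zinc finger genes whose symbols start with Zbtb, Zscan or Zkscan followed by a number. They were taken by name, and these names were chosen with earlier results of these data known. The array table held 65 of them with a transcript cluster of their own, among 19938 genes tested: 42 named Zbtb, 12 named Zscan and 11 named Zkscan. A transcript cluster is the group of probes that the array reads out as a single value. A further 5 genes, Zscan4a, Zscan4b, Zscan4c, Zscan4d and Zscan4f, shared 3 clusters with each other and were not tested. In the Zbtb set, Zbtb8os, which encodes the RNA ligase cofactor archease, and Zbtb11os1, an antisense transcript, match by letters only, which left 63 zinc finger genes. Where a gene had more than 1 cluster, the brightest by mean was used, which concerned 4 members.

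The cells were primary mouse embryonic fibroblasts (Millipore), connective tissue cells grown out of embryos, cultured on plastic in DMEM with 10% FBS and 5% CO2. Hypothermia meant moving the incubator to 32°C, and normothermia meant staying at 37°C, and the question was which genes move steadily with the duration of cooling. Each of 0.5, 1, 2, 4, 8 and 18 h had 1 array at 32°C and 1 at 37°C, and the array at 0 h, labelled normothermia, starts both series, which gave 13 arrays. Each array carried pooled RNA from 3 dishes. Every error given here is therefore a spread between arrays at different times, and precision is limited by how few arrays there are. An array and its time and temperature cannot be told apart. Strain and embryonic age are not given in the labels.

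BTB zinc finger proteins (symbol Zbtb) pair a BTB domain, which lets them dimerize and recruit corepressors, with zinc fingers that read DNA, and several are known as switches of cell fate in blood and immune cells. In the Zscan and Zkscan proteins the pairing is done by a SCAN domain, and Zkscan proteins carry a KRAB domain as well. In many KRAB zinc finger proteins that domain recruits the corepressor TRIM28 and through it the histone methyltransferase SETDB1. Whether the Zkscan proteins do so was not measured here. Most of these proteins act as transcriptional repressors, and many SCAN genes lie beside each other in the genome.

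RefSeq promoter windows were available for 51 of the 63 zinc finger genes. Each runs from 250 bases before to 50 bases after a start site in GRCm38.p6. The windows below belong to 5 of the 7 members that passed a test at 32 against 37°C, and are shown because 4 of the 5 hold the same short motif close to the start. Each is written 5′ to 3′ along its gene, and capitals mark CCGGAAG, the core bound by ETS family activators, on either strand.
Zbtb26, chr2:37443123-37443422, minus strand: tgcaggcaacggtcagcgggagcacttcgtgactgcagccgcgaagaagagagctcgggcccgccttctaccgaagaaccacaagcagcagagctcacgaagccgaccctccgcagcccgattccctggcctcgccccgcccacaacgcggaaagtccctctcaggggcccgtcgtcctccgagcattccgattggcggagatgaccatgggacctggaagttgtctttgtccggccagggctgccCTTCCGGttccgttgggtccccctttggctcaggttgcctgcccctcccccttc
Zbtb11, chr16:55973554-55973853, plus strand: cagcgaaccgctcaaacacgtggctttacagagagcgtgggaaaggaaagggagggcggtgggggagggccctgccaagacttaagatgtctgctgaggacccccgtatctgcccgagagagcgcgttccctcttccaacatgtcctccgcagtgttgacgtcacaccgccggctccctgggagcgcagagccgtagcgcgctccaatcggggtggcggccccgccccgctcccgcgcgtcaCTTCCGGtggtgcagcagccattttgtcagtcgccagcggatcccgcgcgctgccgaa
Zscan21, chr5:138116655-138116954, plus strand: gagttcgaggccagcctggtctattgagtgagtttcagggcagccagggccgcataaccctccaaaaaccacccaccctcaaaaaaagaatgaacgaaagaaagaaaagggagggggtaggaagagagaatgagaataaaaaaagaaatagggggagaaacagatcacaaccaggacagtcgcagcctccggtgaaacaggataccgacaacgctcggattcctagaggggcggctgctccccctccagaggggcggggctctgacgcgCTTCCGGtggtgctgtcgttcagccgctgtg
Zkscan8, chr13:21531065-21531364, minus strand: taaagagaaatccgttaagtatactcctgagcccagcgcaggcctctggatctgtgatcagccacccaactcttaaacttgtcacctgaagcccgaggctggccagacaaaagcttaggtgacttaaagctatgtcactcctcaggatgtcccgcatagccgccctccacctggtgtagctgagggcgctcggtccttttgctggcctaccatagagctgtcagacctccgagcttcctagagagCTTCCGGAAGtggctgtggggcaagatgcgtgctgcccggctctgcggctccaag
Zscan26, chr13:21453678-21453977, minus strand: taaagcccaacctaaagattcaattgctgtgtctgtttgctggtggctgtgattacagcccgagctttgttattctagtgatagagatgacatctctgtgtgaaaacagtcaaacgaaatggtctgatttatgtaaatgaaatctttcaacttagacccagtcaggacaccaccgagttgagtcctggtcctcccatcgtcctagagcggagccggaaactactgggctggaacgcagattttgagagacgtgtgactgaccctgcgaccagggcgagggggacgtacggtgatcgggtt

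In Zbtb26 the motif began 4 bases before the start site, in Zbtb11 8 bases before it, and in Zscan21 at base 20 after it. Zkscan8 held overlapping copies on both strands, at 5 and 2 bases before the start, and Zscan26 held none. Counted by gene, 4 of the 5 called members shown had CCGGAAG in a window, against 15 of the other 46 zinc finger members with a window (32.6%). It was found in 21.1% of the 285 genes named Zfp and a number, and in 9.93% of all 27025 genes in the RefSeq table. CCGGAAG was singled out from the motifs searched because these called genes hold it. The contrast is thus a description of 5 genes and was not tested. Counted by window, the motif was in 29% of the 69 member windows and in 8.86% of all 32851 windows. Member windows were also richer in CpG, with a median of 22 CpG dinucleotides against 7 over all windows, and a median GC content of 59.7% against 52.7%. GGGCGG, the GC box, was in 56.5% of member windows and 35.7% of all. TATAAA was in 8.7% and 13.6%, and CCAAT in 29% and 37.4%. TCTCGCG, a motif read by the methyl-CpG binding member Kaiso (Zbtb33), was in 8.7% of member windows and 2.56% of all, and its other motif TCCTGCNA in 5.8% and 4.96%. CACGTG was in 13% and 7.15%, and GAANNTTC, the heat shock element core, in 2.9% and 7.86%. All motifs were searched on both strands. These matches describe letters in a window, and binding was not measured.

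Fibroblast markers were the brightest of the cell type markers, with mean log2 intensities from 10.21 for Col3a1 to 13.78 for Vim, and the markers of macrophages, endothelium, epithelium, skeletal muscle, nerve and glia, and erythroid cells lay between 4.77 and 7.65. The median over all transcript clusters was 7.21. The summed intensity of the 4 macrophage markers was 337.6 to 346.8 at 37°C and 365.5 to 473 at 32°C over 4 to 18 h. Of the 4, 3 (Adgre1, Csf1r and Cd68) were in rising order at 32°C, as were 8.9% of all genes (exact 1-sided Kendall p under 0.05). The mean log2 difference, 32°C minus 37°C, over 4 to 18 h was above 0 for these 3 and -0.044 (SE 0.078) for Ptprc. The summed intensity of the 8 fibroblast markers was 43561.6 to 44913.5 at 37°C and 40370.8 to 42281.6 at 32°C over the same times. By the same log2 difference 6 of the 8 were lower at 32°C, and Pdgfra (0.10, SE 0.079) and Vim (0.0028, SE 0.057) were not. The part of either set of markers in the results below was not tested. In such bulk RNA, fewer cells of a type and less RNA per cell cannot be told apart.

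Over 4 to 18 h, 7 of the 65 members differed between temperatures, 6 of them lower at 32°C: Zbtb26, Zbtb11, Zscan30, Zscan21, Zscan26 and Zkscan8. The exception was Zkscan14, which was higher. The late temperature effect is the mean log2 difference, 32°C minus 37°C, over the 3 pairs of arrays at 4, 8 and 18 h, tested with limma over all genes at a Benjamini-Hochberg adjusted p under 0.05. Lower calls were 9.23% of the members and 2.15% of all genes tested, and higher calls 1.54% and 0.802%. Among the 347 genes named Zfp, which are zinc finger genes for the most part, lower calls were 8.93% and higher calls 0.865%. By name group, 3 of 12 Zscan, 2 of 42 Zbtb and 1 of 11 Zkscan genes were called lower, and these shares were not tested against each other. Leaving out the 8 h arrays ended all 7 calls, and ended the 588 calls over all genes too. On relative ranks within each array, 0 members and 0% of all genes were called. From the arrays at 4 to 18 h alone, 0 members and 0.0201% of all genes were called. Without the 4 h arrays 4 members were called and without the 18 h arrays 2, Zbtb26 and Zscan21.

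**Figure D1:**
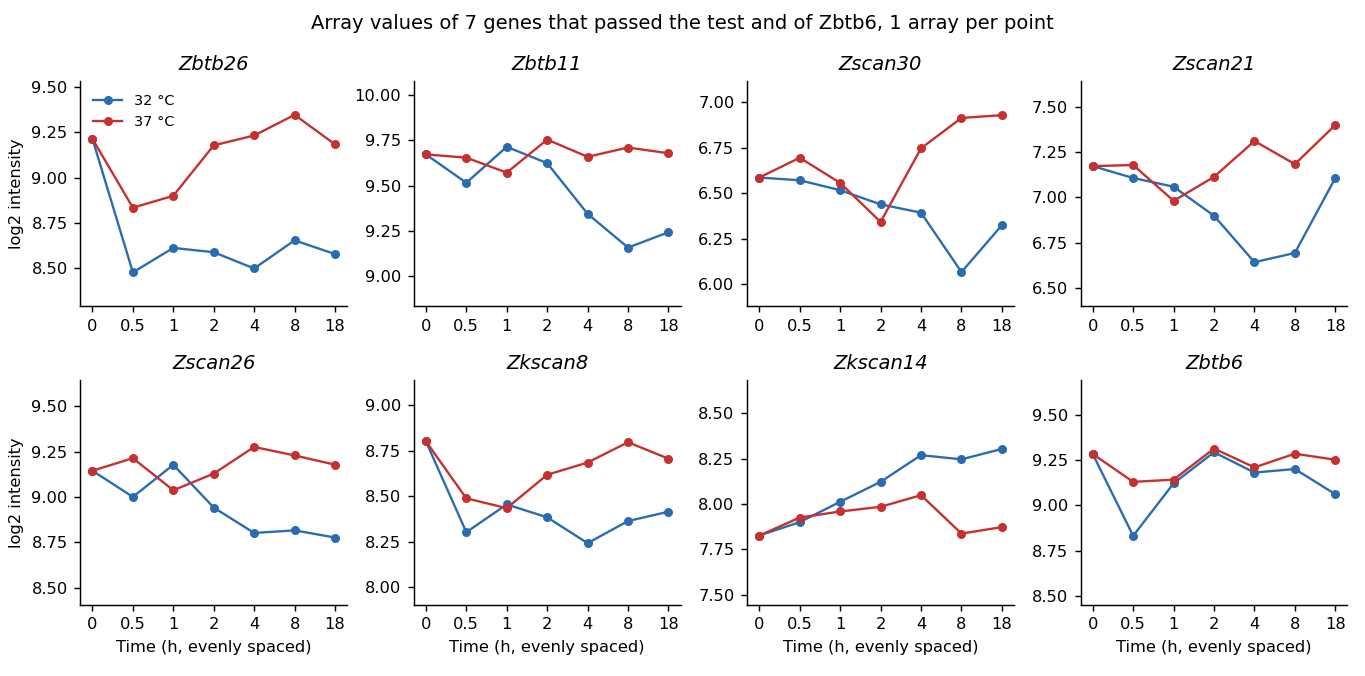
log2 intensity (vertical axis) against time in h, evenly spaced (horizontal axis), at 32°C (blue) and 37°C (red) for the 7 members called in the late temperature effect and for Zbtb6, the neighbour of Zbtb26. Each point is 1 array and both lines start from the same array at 0 h. The 6 points of Zbtb26 at 32°C (356.7 to 403.1 on the linear scale) lie below its 6 points at 37°C, while Zkscan14 at 32°C ended above its 37°C line.

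Zbtb26, a little studied BTB gene, showed the largest difference of the members. Its intensity was 593.8 at 0 h. At 32°C it was 356.7, 391.6, 385.2, 362, 403.1 and 382.4 at 0.5, 1, 2, 4, 8 and 18 h. At 37°C it was 456.6, 477.8, 579.3, 601.5, 650.9 and 581.4 at the same times. All 6 arrays at 32°C lay below all 6 at 37°C, and the 37°C series also dipped at 0.5 and 1 h before it returned to its starting level. The late temperature effect was -0.68 (SE 0.072, limma adjusted p = 0.00713), which is 0.626 of the 37°C level. Zbtb26 was also the member called in the temperature effect at matched times, the mean over all 6 pairs (-0.54, SE 0.065, limma adjusted p = 0.0486). That comparison called 1 of 65 members lower (1.54%) and none higher, against 0.0552% and 0.015% of all genes, and the call was lost without the arrays at 2, 4, 8 or 18 h, with adjusted p-values up to 0.171, and with quantile normalization, relative ranks or an offset of 64. Without 8 h the adjusted p of the late effect was 0.0743.

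Zbtb11, known for its part in the expression of mitochondrial protein genes, ran level at 37°C and lower at 32°C from 4 h. Its intensity at 37°C stayed between 760.9 and 863.2 over all 7 arrays. At 32°C it was 732, 839.7, 788.9, 650.2, 571.5 and 606 from 0.5 to 18 h. The 3 late arrays at 32°C and that at 0.5 h lay below every array at 37°C, and those at 1 and 2 h lay among them. The late effect was -0.43 (SE 0.077, limma adjusted p = 0.0277), 0.74 of the 37°C level.

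Among the other BTB genes no late effect passed the test. The largest higher value belonged to Zbtb22, with 294.5, 306.7 and 254.9 at 4, 8 and 18 h at 32°C and 221.9, 222.3 and 242.5 at 37°C (0.31, SE 0.081, adjusted p = 0.0727). It was above its 37°C partner in 6 of 6 pairs. Zbtb7b, also called ThPOK or c-Krox and known as the switch to helper T cells and as a regulator of collagen genes, started higher in the cold and ended lower. Its 32°C intensity was 756.3 at 0.5 h and 437.1 to 501.3 from 2 to 18 h, against 570.7 and 522.1 to 649.6 at 37°C. The late effect of Zbtb7b was -0.37 (SE 0.10, adjusted p = 0.0953), with a spread over the 3 pairs of 0.032 (SD). Zbtb45 had the same turn, with differences of 0.30 and 0.25 at 0.5 and 1 h and a late effect of -0.27 (SE 0.094, adjusted p = 0.16). Zbtb32, a repressor of lymphocytes, had a late effect of 0.15 (SE 0.066, adjusted p = 0.265) at a low signal of 94.01 to 113.5.

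The members that bind methylated DNA did not pass. Kaiso (Zbtb33) had a late effect of 0.07 (SE 0.076, adjusted p = 0.677), Zbtb4 of -0.17 (SE 0.071, adjusted p = 0.246) and Zbtb38 of -0.19 (SE 0.089, adjusted p = 0.29). For Zbtb4 and Zbtb38 the 3 late arrays at 32°C lay below the 3 at 37°C, and for Zbtb33 they overlapped. Zbtb17 (Miz-1, a partner of MYC) had a late effect of 0.03 (SE 0.075, adjusted p = 0.876) and Zbtb7a (LRF, a repressor of fetal globin) of -0.012 (SE 0.082, adjusted p = 0.959). Zbtb24, mutated in a human immunodeficiency with loss of DNA methylation, had -0.19 (SE 0.07, adjusted p = 0.179). The genes of this paragraph were chosen for their known roles after their values had been seen.

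The SCAN genes without a KRAB domain gave 3 of the 7 calls. Zscan30 was a weak signal, with a mean log2 intensity of 6.54, below the median over all clusters. Its intensity at 32°C was 95.06, 91.52, 86.71, 84, 66.96 and 80.07 from 0.5 to 18 h. At 37°C it was 103.6, 94.11, 81.07, 107.4, 120.6 and 121.9. The late arrays did not overlap, and those at 37°C lay above the 96.06 of the array at 0 h while those at 32°C lay below it. The late effect of Zscan30 was -0.60 (SE 0.091, limma adjusted p = 0.0171), 0.658 of the 37°C level, and its late difference exceeded its early one by -0.58 (SE 0.13, adjusted p = 0.193). With 64 added to each value before the logarithm, a step that damps weak signals, its late effect was -0.36.

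Zscan21, first described in precursors of cerebellar granule cells, also had a mean under the median, at 7.06. At 4, 8 and 18 h its intensity was 99.93, 103.5 and 137.8 at 32°C and 158.7, 145.3 and 168.7 at 37°C, so the groups did not overlap and the gap narrowed at 18 h. The late effect was -0.48 (SE 0.084, limma adjusted p = 0.0272). Zscan26 was brighter, with 446.3, 450.7 and 438.6 at 32°C and 619.8, 600 and 579.2 at 37°C at those times. The late effect of Zscan26 was -0.43 (SE 0.077, limma adjusted p = 0.0287), and its 3 late pairs spread by 0.039 (SD). Zscan25 ran the other way, with 218.9, 239.8 and 214.4 at 32°C and 197.6, 202.5 and 185.3 at 37°C, and its late effect of 0.20 (SE 0.06, adjusted p = 0.114) did not pass. The shared Zscan4 clusters, whose genes are known from early embryos and embryonic stem cells, read 25.6 to 39.48 on all arrays.

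The Zkscan genes held a call in each direction. Zkscan8 was at 446.5 at 0 h, and at 4, 8 and 18 h it was 302.6, 329.3 and 341.2 at 32°C and 411.7, 444.9 and 417.8 at 37°C. The late arrays did not overlap, and its late effect was -0.39 (SE 0.07, limma adjusted p = 0.0287), 0.763 of the 37°C level. Zkscan14 was at 226.9 at 0 h. At 32°C it was 238.8, 258.1, 278.5, 308.4, 303.5 and 315.8 from 0.5 to 18 h, and at 37°C 243, 248.7, 253.2, 264.7, 228.6 and 234.3. The cold series stepped up at nearly every time, with an exact 1-sided Kendall p of 0.00139 (tau 0.905), and the warm series had no such order (tau 0.238). The late effect of Zkscan14 was 0.35 (SE 0.067, limma adjusted p = 0.0332), 1.28 times the 37°C level, and this call was lost without the arrays at 1, 8 or 18 h. Zkscan3, known as a repressor of autophagy and lysosome genes, was lower in 6 of 6 pairs (late effect -0.27, SE 0.078, adjusted p = 0.102) and was picked out after its values were seen. Zkscan17 was higher in 6 of 6 pairs, with 393.2 to 446.8 at 32°C and 352.2 to 391.7 at 37°C (late effect 0.13, SE 0.072, adjusted p = 0.381).

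**Figure D2:**
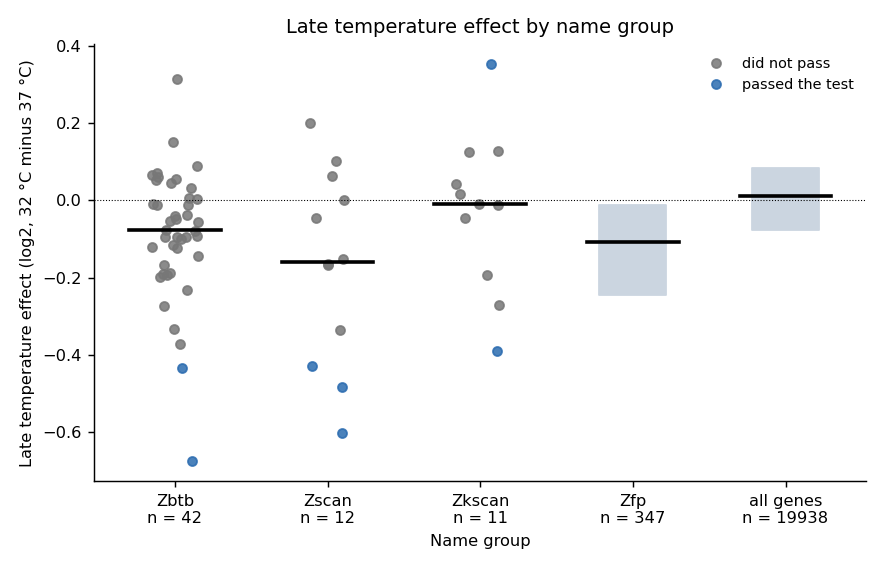
Late temperature effect (vertical axis, log2, mean over the pairs at 4, 8 and 18 h) of each member by name group (horizontal axis). Points are genes, blue where the limma test was passed, black bars are group medians, and grey boxes span the quartiles of the 347 Zfp genes and of all 19938 genes. The medians were -0.078 for Zbtb, -0.16 for Zscan, -0.0084 for Zkscan, -0.11 for Zfp and 0.0099 for all genes.

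As groups, Zbtb and Zscan genes leaned lower at 32°C late in the course. The median late effect was -0.078 over the 42 Zbtb genes, with 30 below and 12 above 0, and -0.045 after quantile normalization. It was -0.16 over the 12 Zscan genes, with 8 below and 4 above. The 11 Zkscan genes were split 6 to 5 with a median of -0.0084, and this median turned positive, to 0.042, when only genes at or above the median signal were kept, and to 0.0045 with every transcript cluster counted, while quantile normalization moved it to -0.036. The 347 Zfp genes had a median of -0.11, with 266 below 0, and all genes tested one of 0.0099. The medians of the name groups were not tested against each other. All 3 late arrays at 32°C lay below all 3 at 37°C for 22 members (33.8%) against 12.9% of all genes and 38.6% of the Zfp genes. They lay above for 6 members (9.23%) against 10.3% of all genes and 4.03% of the Zfp genes. Of the 22, 13 were Zbtb, 6 Zscan and 3 Zkscan genes.

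**Figure D3:**
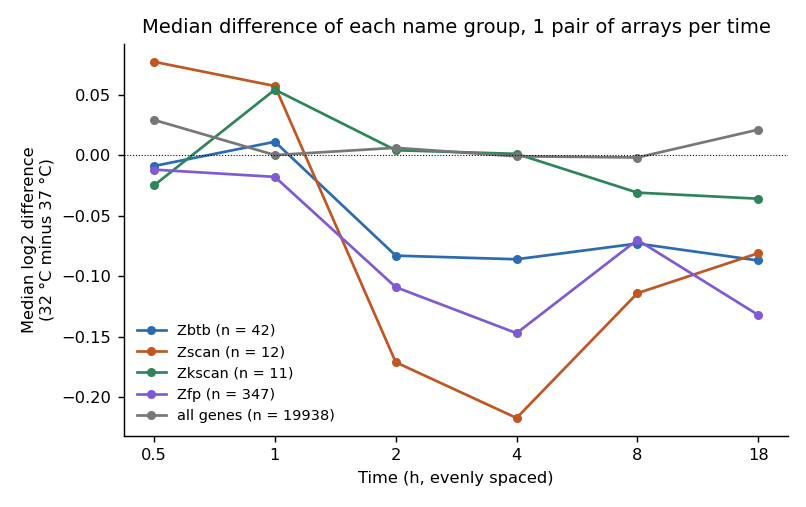
Median log2 difference, 32°C minus 37°C (vertical axis), at each time in h, evenly spaced (horizontal axis), for the 3 name groups, the Zfp genes and all genes tested. Each point rests on 1 pair of arrays, and the Zscan line passes from 0.057 at 1 h to -0.17 at 2 h and -0.22 at 4 h.

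From 2 h on, the median differences of the Zbtb and Zscan genes lay below 0 at every time. Each time rests on 1 pair of arrays, and a time of onset was not tested. The median difference of the Zscan genes was 0.077 at 0.5 h, 0.057 at 1 h, -0.17 at 2 h, -0.22 at 4 h, -0.11 at 8 h and -0.081 at 18 h. That of the Zbtb genes was -0.009 and 0.011 at 0.5 and 1 h and between -0.073 and -0.087 from 2 to 18 h. The Zkscan medians stayed between -0.036 and 0.054. The Zfp genes moved from -0.018 at 1 h to -0.11 at 2 h and -0.15 at 4 h. At 4 h, 10 of 12 Zscan, 31 of 42 Zbtb and 5 of 11 Zkscan genes were lower at 32°C. So were 263 of the 347 Zfp genes and 10021 of all 19938 genes. Against the array at 0 h, the 4 h median of the Zscan genes was -0.15 at 32°C and 0.082 at 37°C. Each of these values rests on 1 array, and the 37°C median was -0.105 at 1 h and -0.011 at 18 h. For the Zbtb genes the 4 h values were -0.001 at 32°C and 0.043 at 37°C. The late minus early contrast of the limma fit called 0 members and 0% of all genes in either direction, with 4 members higher (6.15%, against 3.77% of all genes) and 11 lower (16.9%, against 7.69%) at an unadjusted p under 0.05.

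**Figure D4:**
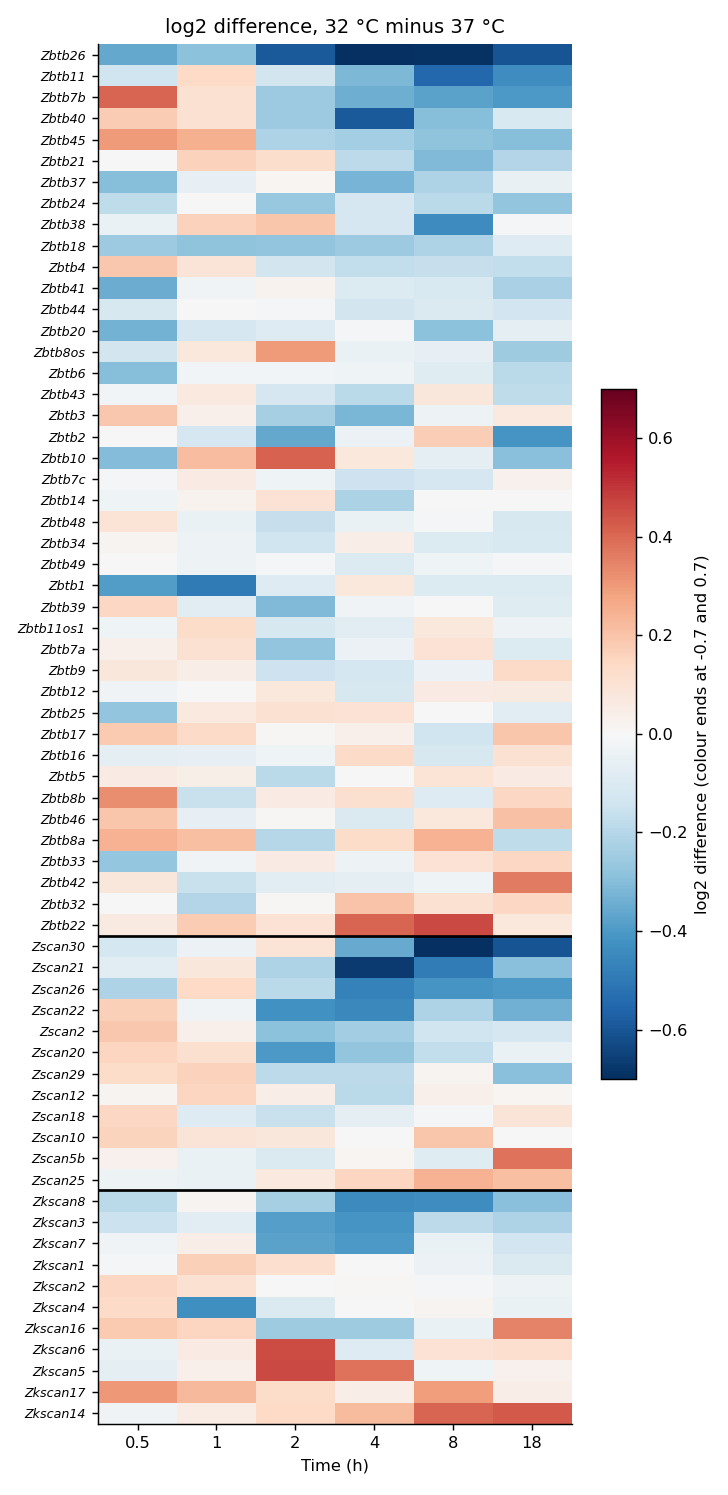
log2 difference, 32°C minus 37°C, of all 65 members (rows, split by black lines into Zbtb, Zscan and Zkscan, and sorted by the late mean in each) at each time in h (columns). Blue is lower and red higher at 32°C, the colour scale ends at -0.7 and 0.7, and the blue rows at the head of the Zbtb and Zscan blocks are Zbtb26, Zbtb11, Zscan30 and Zscan21.

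The divergence from the common start, which fits the paired differences over the order of the times with a line that is held at 0 where both series begin, is in log2 units per time step. It called the same 7 members, 6 lower (9.23%, against 1.66% of all genes) and 1 higher (1.54%, against 1.17%). Both tests use the same pairs of arrays, and the late pairs weigh most in this line. The shared calls are therefore not independent of the late effect. The values were -0.14 (SE 0.016, limma adjusted p = 0.00569) for Zbtb26, -0.10 (SE 0.02) for Zscan30 and -0.082 (SE 0.018, limma adjusted p = 0.042) for Zscan21. They were -0.075 (SE 0.015) for Zbtb11, -0.075 (SE 0.016) for Zscan26, -0.072 (SE 0.014) for Zkscan8 and 0.066 (SE 0.011) for Zkscan14. Zbtb26 kept its call without any single time (adjusted p up to 0.0404). Of the 7 calls, 3 held without the arrays at 0.5 h, 4 without 2 h, and 1 without 4, 8 or 18 h, and without 0.5 or 18 h 1 further member was called. On relative ranks 2 members and 0.838% of all genes were called, where the main setting called 7 members and 2.83%. Without the arrays at 0.5 h, 1.59% of all genes were called. With a separate term for 32°C, which takes up any level gap that is constant from 0.5 h on, no member was called, and 4 of all genes were. Among members not called, Zscan22 (-0.067, adjusted p = 0.0578) and Zkscan3 (-0.058, adjusted p = 0.0617) lay nearest to the threshold, and Zbtb22 had the next highest value (0.056, adjusted p = 0.0872).

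Within a single temperature no member passed the limma test of a steady slope over the order of the 7 times. At 32°C, 0.0451% of all genes were called higher and 0.0502% lower, and at an unadjusted p under 0.05 there were 1 member higher (1.54%, against 7.14% of all genes) and 7 lower (10.8%, against 9.35%). The share of lower members was thus near that of all genes. The largest slopes were 0.085 per step for Zkscan14 (SE 0.014, adjusted p = 0.0564), 0.049 for Zkscan16 (SE 0.035) and 0.04 for Zbtb42 (SE 0.02). The most negative were -0.092 for Zbtb7b (SE 0.033), -0.085 for Zbtb11 (SE 0.022) and -0.076 for Zbtb45 (SE 0.023). Zkscan14 passed when the values were quantile normalized (adjusted p = 0.0454) or when only genes at or above the median signal were tested (adjusted p = 0.0395). At 37°C the test called 0% of all genes in either direction, and at an unadjusted p under 0.05 4 members were higher (6.15%, against 3.62% of all genes) and 2 lower (3.08%, against 2.18%). The extremes there were 0.059 for Zscan30 (SE 0.028), 0.047 for Zscan2 (SE 0.02) and 0.045 for Zbtb26 (SE 0.027), and -0.035 for Zbtb10 (SE 0.014), -0.03 for Zbtb32 (SE 0.01) and -0.028 for Zscan25 (SE 0.013).

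By rank order alone, with Kendall's tau tested exactly in each gene at an unadjusted 1-sided p under 0.05, 3 members rose at 32°C (Zkscan14, Zbtb46 and Zbtb12) and 3 fell (Zscan30, Zscan26 and Zbtb11). Those are 4.62% of the members in each direction, against 8.9% of all genes rising and 8.47% falling. At 37°C, Zbtb48, Zbtb24 and Zscan2 rose (4.62%, against 5.05%) and Zbtb21, Zbtb32 and Zscan25 fell (4.62%, against 3.32%). Zscan30 at 32°C (tau -0.905, exact p = 0.00139) was the mirror of Zkscan14. No member reached a tau of 1 or -1. Several of these genes are named after their order was seen.

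In 6 of 6 pairs the 32°C array was lower for 5 members (7.69%, against 2.92% of all genes): Zbtb26, Zbtb18, Zbtb20, Zbtb6 and Zkscan3. It was higher in 6 of 6 pairs for 2 members (3.08%, against 4.79%), Zbtb22 and Zkscan17. Zbtb18, a repressor known from brain development, is named here after its values were seen: its 6 arrays at 32°C (119.9 to 141.5) lay below its 6 at 37°C (142 to 171.1). Its temperature effect at matched times was -0.23 (SE 0.044, limma adjusted p = 0.0919). The other 2 members whose groups of 6 did not overlap were Zbtb26, lower, and Zkscan17, higher. That makes 3.08% of the members lower in this way, against 0.451% of all genes, and 1.54% higher, against 0.863%. Of the members with more than 1 cluster, Zbtb2, Zbtb20 and Zbtb44 had clusters that differed in the sign of a slope within a temperature. All of those slopes were at most 0.041 in size with an SE of at least 0.011. In the late effect both clusters pointed the same way, with -0.095 and -0.14 for Zbtb2, -0.12 and -0.044 for Zbtb20, -0.12 and -0.14 for Zbtb44, and 0.13 and 0.087 for Zkscan17.

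Members that are direct neighbours among the protein-coding genes of GRCm38.p6 did not all move together. Only the runs that hold a called gene are drawn. In the runs without one, Zbtb25 and Zbtb1 had late effects of 0.005 and -0.039, and Zbtb34 and Zbtb43 of -0.053 and -0.096. Those of Zbtb8a and Zbtb8b were 0.065 and 0.056. Zbtb26 and Zbtb6 lie side by side, and their late effects were -0.68 ± 0.066 and -0.10 ± 0.082 (SD, n = 3 pairs). Zbtb6 was at 580.4, 588.3 and 534.3 at 32°C and 592, 623.8 and 609.5 at 37°C at 4, 8 and 18 h. Zscan21 and Zkscan1 are neighbours too, at -0.48 ± 0.19 and -0.047 ± 0.052 (SD, n = 3 pairs). In the run Zscan12, Zkscan3, Zscan26, Zkscan4 and Zkscan8, broken by Pgbd1 and Nkapl, the late effects were -0.047, -0.27, -0.43, -0.008 and -0.39. Zkscan4, between both called genes of that run, read 63.05 to 72.73 at 37°C and 63.16 to 70.38 at 32°C at those times, a weak signal. In the run Zkscan14, Zkscan5 and Zscan25, broken by Zfp655, all 3 late effects were positive, at 0.35, 0.13 and 0.20, and Zkscan5 and Zscan25 did not pass. These differences between neighbours are descriptions and were not tested.

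**Figure D5:**
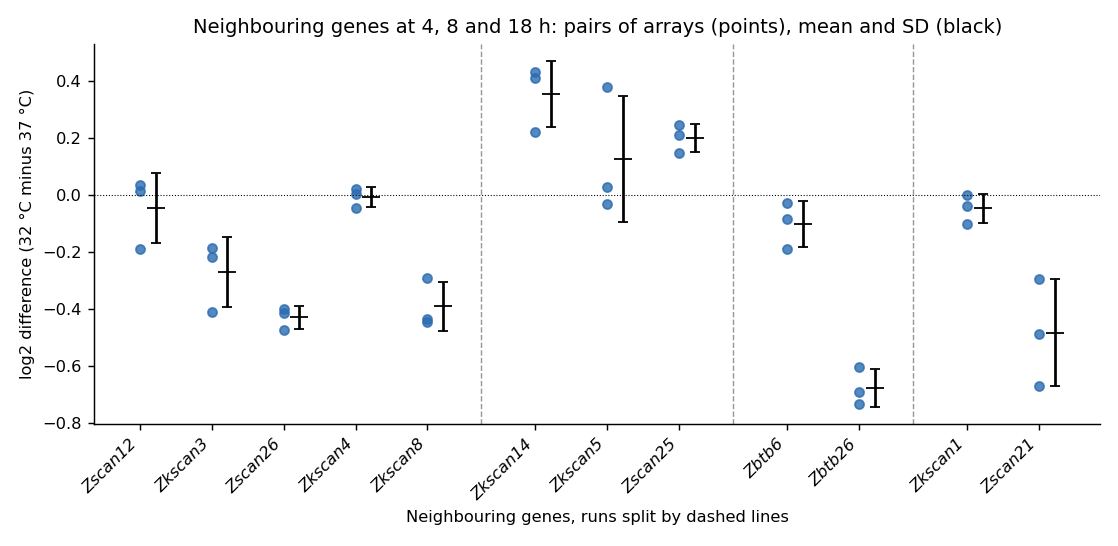
log2 difference, 32°C minus 37°C (vertical axis), at 4, 8 and 18 h for neighbouring members in runs that hold a called gene (horizontal axis, runs split by dashed lines). Blue points are the 3 pairs of arrays, and black bars are their mean ± SD. Zbtb26 and Zscan21 lie below their neighbours Zbtb6 and Zkscan1, and the 3 genes of the Zkscan14 run have means above 0.

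Genes of the same domain classes under other names were described for comparison. Of 8 BTB zinc finger genes with other names, none passed in any comparison, and at an unadjusted p under 0.05 in the late effect 1 was higher and 2 lower, where 7.62% of all genes were higher and 10.8% lower. The lowest p-values in the late effect belonged to Hic1, a growth repressor (-0.38, SE 0.11, adjusted p = 0.117), Bcl6b (0.27, SE 0.094, adjusted p = 0.17) and Bcl6, the repressor of germinal centre B cells (-0.24, SE 0.098, adjusted p = 0.243). Of 15 SCAN genes with other names, 14 had a late effect below 0, with a median of -0.11. Over all 19938 genes, 9276 were below 0. In the divergence 1 passed, Zfp287 (-0.073, SE 0.014, limma adjusted p = 0.0274), where 1.66% of all genes were called lower. Most of the 15 are named Zfp and also count among the 347 Zfp genes, of which 266 were below 0 (median -0.11).

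Of 17 measured corepressors that some BTB, SCAN or KRAB zinc finger proteins recruit, 1 passed in the late effect, where 2.15% of all genes were called lower. Setdb1, which methylates histone H3 at KRAB targets, was lower (-0.34, SE 0.072, limma adjusted p = 0.0416). Trim28, which brings it there, had a late effect of -0.10 (SE 0.069, adjusted p = 0.478). The corepressors had a median late effect of -0.10, with 11 below 0 and 6 above. In rank order at 32°C 5 of the 17 fell (29.4%, against the 8.47% of all genes), namely Trim28, Setdb1, Atf7ip, Cbx5 and Chd4. The 36 genes named Klhl, whose proteins carry a BTB domain without zinc fingers, had a median late effect of -0.015. Of these 36, 4 were called lower and none higher, where 2.15% of all genes were called lower and 0.802% higher.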

How the data were processed

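RNA of primary mouse embryonic fibroblasts was hybridized to Mouse Gene 1.0 ST arrays (Affymetrix) after amplification with the Ambion WT Expression Kit, with RNA of 3 dishes pooled per array. The authors deposited 1 intensity value per transcript cluster and array on a linear scale, and their probe summary and normalization are not given in the sources used here. Array medians were 145 to 149.8, so values were log2 transformed as deposited. No probe-level values, detection calls or batches were used, and no replicate arrays exist: p-values measure the spread between arrays.

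Of 28853 clusters, 21789 carried 1 symbol, of which 21698 were named by Entrez identifier and 91 kept the annotation symbol. Models were fitted in limma 3.58.1 (lmFit, eBayes; R 4.3.3) over all 19938 genes with Benjamini-Hochberg adjustment, 2-sided, time point as a block between temperatures, and checked on simulated data. Kendall's tau was tested exactly. Figures used matplotlib 3.10.9. Alternatives were quantile normalization, relative ranks, a signal filter, all clusters, an offset of 64, log time, other fits and leaving out each time. Named with values were members past a threshold, the 5 extreme late effects and 3 extreme slopes per direction, clusters that disagree, and up to 3 genes per other list. The members and lists were chosen with earlier results of these data known.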

Additional observations from a re-analysis of the deposited data

Results flagged for a closer look

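For 7 members the course over time differed between 32 and 37°C in a test of the difference itself, the divergence from the common start in log2 units per time step (limma, adjusted p under 0.05). The values were -0.1397 for Zbtb26, -0.1012 for Zscan30, -0.0817 for Zscan21, -0.0755 for Zbtb11, -0.0754 for Zscan26, -0.0719 for Zkscan8 and 0.0660 for Zkscan14. No group of arrays of these members held a value that stood apart by the gap to its nearest neighbour.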

How the results depend on the processing

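Of 165 values of the 7 called members in the 5 comparisons under settings other than leaving out a time, 130 kept direction and side of the threshold, 31 lost the threshold, 2 gained it and 2 changed sign, and of 224 values with a time left out the numbers were 175, 45, 0 and 4. The changes of sign lay in slopes that had not passed: Zkscan14 at 37°C (-0.0013 with quantile normalization, -0.0157 rank units per step with relative ranks, -0.0161 without 0 h and -0.0036 without 4 h, in a range up to 0.0128 with a time left out), and at 32°C without 0 h Zbtb26 (0.0154, in a range from -0.0896) and Zkscan8 (0.0042, in a range from -0.0699).

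The divergence called 2 members on relative ranks (Zbtb26 and Zkscan14), where 0.838% of all genes were called. It called 0 members where 32°C had a term of its own, and 1 to 7 with a time left out. The late effect called 0 members and 0% of all genes on relative ranks. From the arrays at 4, 8 and 18 h alone, which have fewer degrees of freedom, it called 0 members and 0.0201% of all genes. With a time left out it called 0 to 8 members. The effect at matched times called 0 members and 0% of all genes with quantile normalization, relative ranks or the offset of 64. With a time left out it called 0 to 1 members. The slope at 32°C called 1 with quantile normalization or the signal filter. The cause of these differences was not tested.

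The median late effect of Zbtb was -0.0452 with quantile normalization, -0.0952 with the signal filter, -0.0609 with the offset, and -0.0776 to -0.0529 with a time left out. That of Zkscan was -0.0363 with quantile normalization and 0.0419 with the filter. Leaving out 0 h gives no new value between temperatures and was run for the slopes. Weak signals limit Zscan21 and Zscan30, which the signal filter leaves out and whose divergence missed the threshold with the offset (adjusted p = 0.064 and 0.0564).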
